A study of Bos taurus with 24 samples.

Results

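The change between 2 h and 8 h of lipopolysaccharide (LPS, an outer membrane molecule of Gram-negative bacteria) was followed in dermal fibroblasts (matrix-forming skin cells) of Holstein cattle, a dairy breed. Holstein samples labelled hour 8 (4 samples) were compared with Holstein samples labelled hour 2 (4 samples), and the 2 samples of each animal were paired by the number in the sample title. These 8 samples were part of a series of 24, in which cultures from 4 Holstein and 4 Angus heifers were each sampled before LPS (0 h) and after 2 h and 8 h at 100 ng/ml. The cells were primary skin cultures, lysates of replicate wells were pooled, and polyadenylated RNA was sequenced, so a sample represents a single animal and hour. Holstein samples at 0 h (4 samples) gave the level before LPS, and Angus samples at 2 h and 8 h (8 samples) were used for a test of the breeds. No untreated cultures kept for 2 h or 8 h are among the samples, so the effects of LPS and of time after the start of the challenge cannot be told apart.

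LPS is sensed by Toll-like receptor 4 (TLR4), which activates the transcription factor NF-kB, MAP kinases and interferon regulatory factors. Immediate-early genes are transcribed without new protein synthesis, and many of their mRNAs are short-lived. NF-kB also induces its own inhibitors, which limit the response. Many interferon-stimulated genes depend at least in part on interferon made and secreted by the cells, and these usually follow later. Fibroblasts take part in inflammation of the skin mainly by secreting chemokines, which attract leukocytes, and cytokines.

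The 8 libraries held 60861294 to 99083582 counts each. Expression is reported in CPM, relative to the TMM-scaled size of each library. Samples of a group came from different animals. With the animal in the fit, the tests measure how far the change between hours varied among the cultures of these animals. A level of 3 counts, the limit of detection used here, corresponded to 0.03 to 0.049 CPM and covers counting error only. All 12 fibroblast markers examined (such as COL1A1, DCN and VIM) were tested and none was called changed, with a summed level of 71521 to 86621 CPM at 2 h and 62533 to 79831 CPM at 8 h. The 16 leukocyte markers summed to 5.41 to 6.1 CPM at 2 h and 3.57 to 6.52 CPM at 8 h, and TYROBP was at 0 in all 8 libraries. The summed markers were 3.62 to 5.41 and 3.76 to 5.7 CPM for endothelial cells (TIE1 and CLDN5 at 0), 2.33 to 14.44 and 1.97 to 16.94 CPM for epithelial cells (KRT1 at 0), 5.92 to 6.69 and 6.6 to 8.69 CPM for melanocytes, and 109.18 to 139.99 and 93.83 to 134.34 CPM for muscle (MYOD1 at 0), at 2 h and 8 h respectively. None of the tested markers was called changed by edgeR's likelihood-ratio or quasi-likelihood test or by DESeq2, and at an unadjusted p under 0.05 in the first of these 2 fibroblast markers were higher and 7 were lower. In bulk RNA, fewer cells of a type and less RNA per cell cannot be told apart. Holstein animals 2 and 4 at 0 h and Angus animal 3 at 2 h differed in the bases covered per count at COL1A1. There each count covered 66.2 to 66.9 bases, against 111.8 to 118.3 bases in the 8 libraries compared here. Their share of matched reads was also higher (96.23% to 96.54%, against 94.01% to 94.7%), and the labels give no reason.

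Transcripts moved in both directions in similar numbers between the 2 LPS times. A row of the count table is either a gene with its introns or an interval that carries no symbol. Of 20533 rows tested, 384 (1.87%) were called higher at 8 h and 466 (2.27%) were called lower, where a call needed a false discovery rate (FDR) under 0.05 in edgeR's likelihood-ratio test with the animal as a block, a fold change of at least 2 and an average above 1 CPM. Rows with a gene symbol made up 266 of the higher and 266 of the lower calls. The change had the same direction in all 4 animals for 380 of the 384 and 461 of the 466 rows. The 2 h and 8 h libraries did not overlap for 325 and 417 of them, while they did not overlap for 27.6% of all rows tested. Both counts describe rows that were called on the same libraries. The median log2 fold change was 1.33 for the higher and -1.36 for the lower rows and 0.0 for all rows tested. Changes of at least 4-fold were found in 78 higher and 80 lower rows, and of at least 8-fold in 23 and 24.

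**Figure D1:**
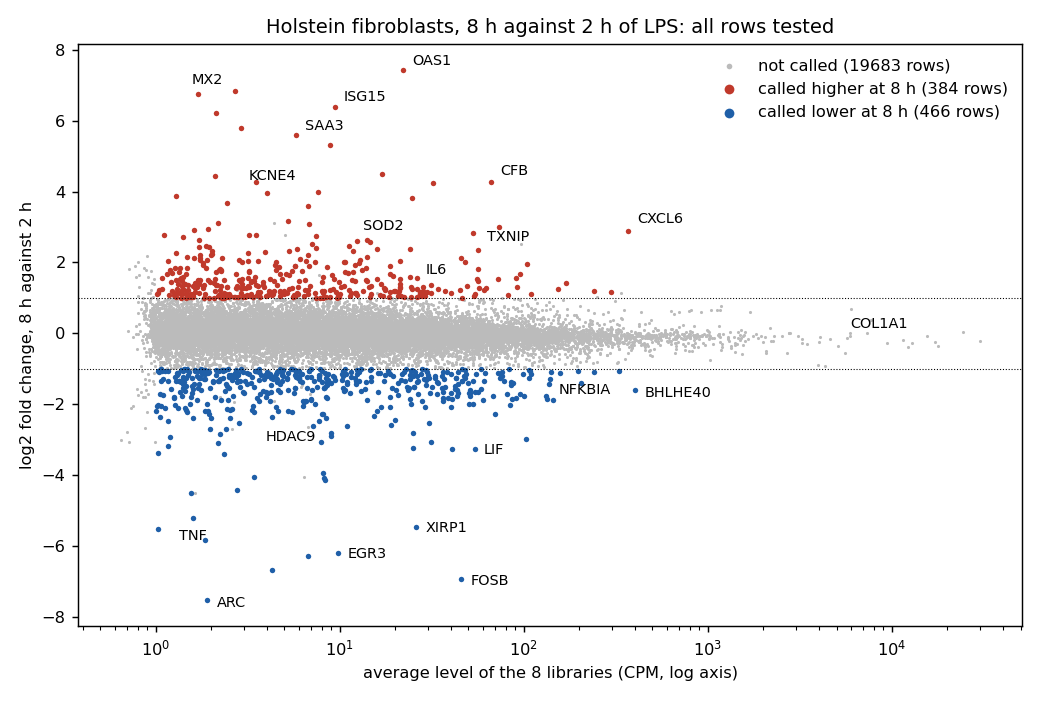
Log2 fold change at 8 h against 2 h (vertical axis) and average level of the 8 Holstein libraries in CPM (horizontal log axis) for the 20533 rows tested, with the 384 rows called higher in red, the 466 called lower in blue, and dotted lines at a log2 fold change of 1 and -1. Among rows that moved the same way in all 4 animals, the genes with the largest falls (ARC, FOSB, EGR3) and rises (OAS1, MX2, ISG15) passed 6 on the log2 scale, while COL1A1, among the most abundant transcripts, was not called.

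Rows were sorted into time courses by their calls in the 3 Holstein comparisons (2 h against 0 h, 8 h against 0 h and 8 h against 2 h), which share libraries with each other, so the classes are a description. From 0 h to 2 h, 509 rows (2.5%) were called higher and 168 (0.827%) lower, and from 0 h to 8 h 421 (2.05%) and 144 (0.703%). Transcripts that rose by 2 h and then decayed formed the largest class, with 268 rows (147 with a gene symbol), which rose by a median of 1.78 and then fell by a median of 1.6 on the log2 scale. In these, the median share of the 2 h gain that was left at 8 h was 4.1%, 174 rows had less than 10% left, and 28 were still called higher than at 0 h. A further 91 rows (59 genes) were maintained, that is, higher than 0 h at both times with no call between them, and a median of 98.8% of their gain was left. The definition of this class itself favours a share near the full gain. Only 16 rows (14 genes) were building, with a called rise by 2 h and another by 8 h. Late rows, which were called higher at 8 h than at both earlier times and were not called higher at 2 h, numbered 179 (122 genes). Of these, 50 were too low to be tested at 2 h against 0 h, and 13 had a mean at 2 h of at least 2 times that at 0 h. Another 77 rows (59 genes) had fallen by 2 h and recovered, and 73 rows (47 genes) fell only after 2 h. The classes are not exclusive, since 1 recovering row is also late and CAMKK1 is both decaying and late falling.

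**Figure D2:**
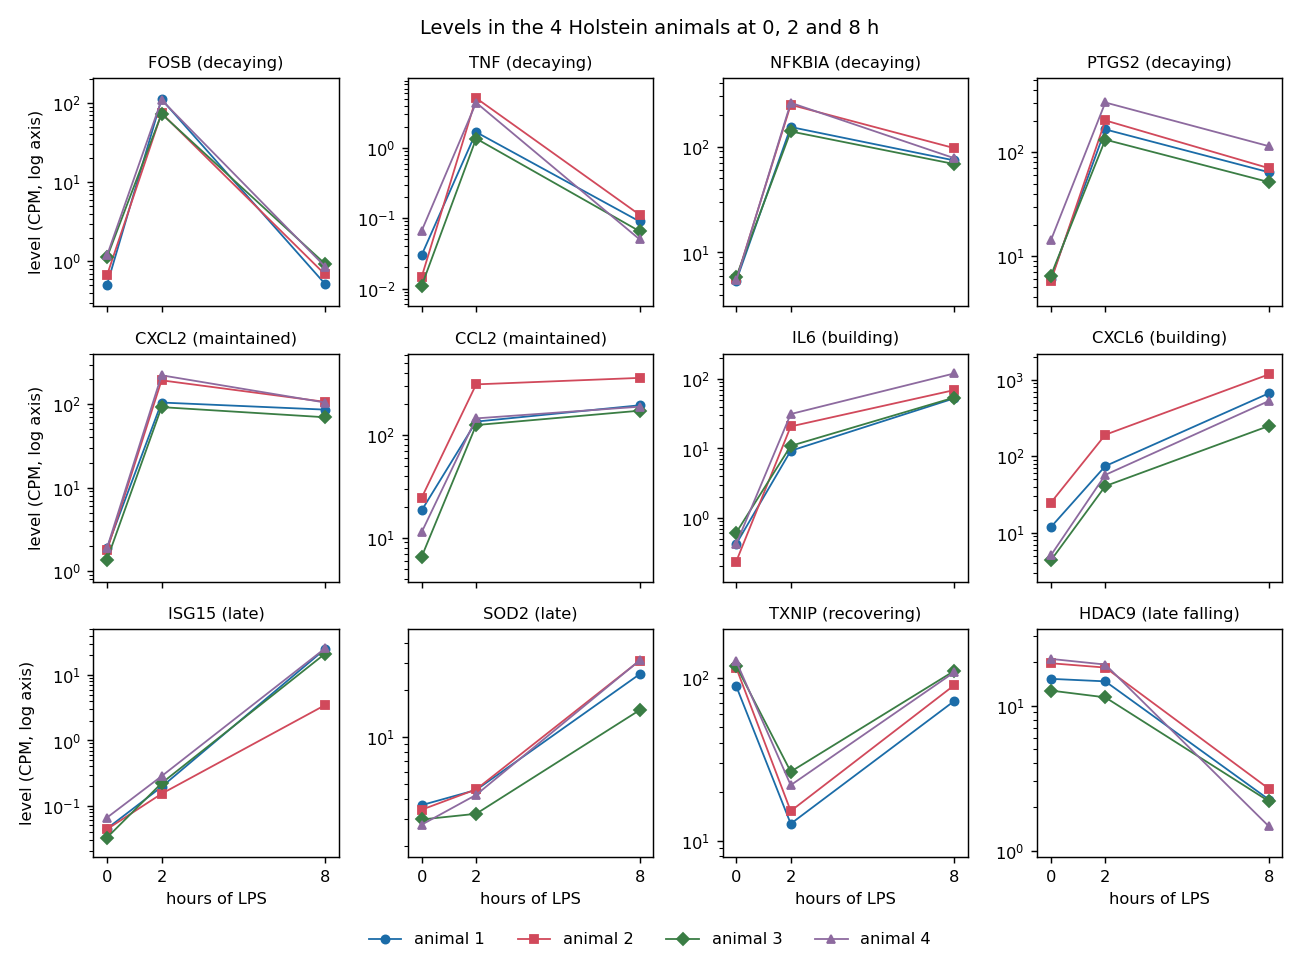
Levels of 12 genes in CPM (vertical log axes) at 0, 2 and 8 h of LPS (horizontal axes), with 1 line for each of the 4 Holstein animals and the time class in brackets. FOSB and TNF returned to about their 0 h level by 8 h, NFKBIA and PTGS2 fell part of the way, IL6 and CXCL6 kept rising, ISG15 and SOD2 rose mainly after 2 h, TXNIP returned from a low at 2 h and HDAC9 fell only after 2 h.

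Several immediate-early transcription factors were among the steepest falls. Of 25 tested immediate-early genes, 9 were lower at 8 h than at 2 h (EGR1, EGR3, FOSB, FOSL1, IER2, IER3, JUNB, JUND and NR4A1), none was higher, and the list had a median log2 fold change of -0.58. EGR3 and FOSB were under 1 CPM in every 8 h library. They passed the filter only with their 2 h libraries, which favours a lower call. The shares were 36.0% lower and 0.0% higher, against 2.27% and 1.87% of all rows. A list of 25 genes is too small to show fewer higher calls than that. No member was called higher with the quasi-likelihood test or with DESeq2 either, 2 were higher at an unadjusted p under 0.05, and with the FDR alone, which 19.7% of all rows passed in each direction, 1 member was higher and 19 were lower. FOSB, a subunit of the AP-1 transcription factor, stood at 111, 74.1, 72.6 and 109 CPM in animals 1 to 4 at 2 h and at 0.519, 0.684, 0.931 and 0.86 CPM at 8 h. All 4 animals were thus back within the range of 0.509 to 1.19 CPM seen at 0 h, and FOSB fell by 6.95 ± 0.19 on the log2 scale (SE, FDR = 2.34e-207, n = 4 animals). EGR3, a zinc finger transcription factor, went from 20.5, 22.5, 11.8 and 23.3 CPM to 0.29, 0.236, 0.212 and 0.32 CPM, a log2 change of -6.2 ± 0.18. ARC, which encodes an activity-regulated cytoskeletal protein and is itself an immediate-early gene, had 5.36, 3.34, 2.0 and 4.64 CPM at 2 h and 0.02, 0.0249, 0.0163 and 0.02 CPM at 8 h. Its 8 h values lie under the level that 3 counts would give in these libraries, and it showed the largest fall of any called gene (-7.52 ± 0.57, FDR = 3.81e-116). XIRP1, an actin-binding protein (22.6 to 66.0 CPM at 2 h and 0.686 to 1.61 CPM at 8 h, log2 fold change of -5.46), and NPAS4, a transcription factor best known from neurons (2.14 to 5.33 CPM and 0.31 to 0.572 CPM, -3.1), followed the same course. LOC783688 had a log2 fold change of -6.69 ± 1.37 (FDR = 0.0209) that the animals did not share, with 6.61, 0.0, 8.46 and 7.13 CPM at 2 h and 12.5, 0.0, 0.0327 and 0.0 CPM at 8 h.

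Not every member of the immediate-early family behaved in this way. FOS had 29.1, 28.1, 37.2 and 44.2 CPM at 0 h, 14.1, 9.29, 21.2 and 13.8 CPM at 2 h and 15, 10.3, 21.6 and 12 CPM at 8 h. It was therefore already lower at 2 h than at 0 h (log2 fold change of -1.29) and was level from 2 h to 8 h (0.01 ± 0.09, FDR = 0.932). EGR1 was not called changed at 2 h and then fell from 27.7, 35.9, 17.5 and 28.3 CPM to 6.7, 5.1, 6.38 and 7.38 CPM (-2.07 ± 0.19, FDR = 1.63e-23), below its 0 h level of 15.3 to 31.0 CPM. JUN (-0.41), ATF3 (-0.58) and DUSP1 (-0.49), which encodes a phosphatase of MAP kinases, stayed under the fold change of 2. Among 13 tested MAP kinase phosphatases and Sprouty genes, which restrain ERK signalling, DUSP5, DUSP6 and SPRY4 were lower and SPRY1 was higher (23.1% and 7.7%, against 2.27% and 1.87% of all rows). DUSP5 dropped from 15.3, 15.6, 13.3 and 19.1 CPM to 1.06, 0.634, 0.637 and 1.28 CPM (-4.15 ± 0.16, FDR = 7.25e-144). SPRY1 went the other way, from 0.98 to 2.3 CPM at 2 h to 2.63 to 4.2 CPM at 8 h (1.11 ± 0.2), and it was not called without animal 4 (0.89). SPRY1 had been called lower at 2 h than at 0 h (-1.95), and at 8 h it was at -0.84 against 0 h, which was not called. HBEGF, a ligand of the epidermal growth factor receptor that ERK signalling induces, fell by 4.42 ± 0.22 on the log2 scale, and the growth factor gene PDGFA fell by 1.36 ± 0.12.

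Some genes of NF-kB feedback fell as well. Of 17 tested NF-kB subunits, inhibitors and feedback genes, 4 were lower (NFKBIA, NFKBID, NFKBIZ and TNFAIP3) and none was higher at 8 h than at 2 h, with a list median of -0.34. The shares were 23.5% lower and 0.0% higher, against 2.27% and 1.87% of all rows. A list of 17 genes is too small to show fewer higher calls than that. The quasi-likelihood test and DESeq2 made no higher call in this list either, and 2 members were higher at an unadjusted p under 0.05. NFKBIA, the inhibitor that holds NF-kB in the cytoplasm, had 5.39 to 5.89 CPM at 0 h, 153, 248, 139 and 259 CPM at 2 h and 74.0, 96.7, 68.4 and 77.7 CPM at 8 h. Every 8 h library lay below every 2 h library and above every 0 h library, and the fall of 1.29 ± 0.13 on the log2 scale (FDR = 4.96e-22) left 37.9% of the gain. TNFAIP3, a ubiquitin-editing enzyme that ends NF-kB signalling, went from 24.6, 67.6, 18.8 and 44.5 CPM to 11.1, 24.6, 8.25 and 14.6 CPM (-1.36 ± 0.1), with 36.2% of its gain left. ZC3H12A, a nuclease that degrades cytokine mRNAs (-1.25 ± 0.14, 31.9% left), IRF1, an interferon regulatory factor (-1.69 ± 0.14, 26.3% left), and NFKBIZ, a nuclear co-activator of NF-kB targets (-1.86 ± 0.13, 21.0% left), were in the same position. IRF1 overlaps LOC100848038, with which it shares counts. NFKBID, another inhibitor of this family, fell by 1.31 ± 0.22 and had 3.3% of its gain left, and TNIP1, which binds TNFAIP3, was higher but under the fold limit (0.77 ± 0.09, FDR = 1.31e-14). ZFP36L2, which also promotes mRNA decay, lost its whole gain (-1.71 ± 0.08), and ZFP36 was not called (-0.39).

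Secreted proteins separated into some that decayed, some that persisted and some that built up. Among 12 tested cytokines and colony-stimulating factors, TNF, LIF, CSF1, IL11 and CLCF1 were lower at 8 h and IL6 was higher. The shares were 41.7% lower and 8.3% higher, against 2.27% and 1.87% of all rows. TNF was under 1 CPM in every 8 h library and passed the filter only with its 2 h libraries, which favours a lower call. TNF, the early cytokine that itself activates NF-kB, stood at 1.68, 5.12, 1.36 and 4.41 CPM at 2 h and at 0.0899, 0.112, 0.0653 and 0.05 CPM at 8 h. The 2 sets of libraries were far apart, and the fall was 5.21 ± 0.36 on the log2 scale (FDR = 1.06e-55), with 1.6% of the gain left. LIF, a cytokine of the IL-6 family, went from 81.4, 117, 72.6 and 125 CPM to 8.26, 13.1, 7.89 and 12.1 CPM (-3.26 ± 0.07). In contrast, IL6, the main inducer of the acute-phase response, had 0.234 to 0.61 CPM at 0 h, 9.26, 20.8, 10.9 and 31.4 CPM at 2 h and 52.9, 69.6, 54.3 and 121 CPM at 8 h. Each animal had gained further by 8 h and the groups did not overlap (2.12 ± 0.13, FDR = 1.94e-56). IL1A, a proinflammatory cytokine, had risen at 8 h against 0 h but differed little between 2 h and 8 h (0.794 to 4.0 CPM and 1.4 to 3.66 CPM, -0.03 ± 0.25, FDR = 0.941).

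Neutrophil chemokines lay next to each other on chromosome 6 and took different courses. CXCL6 (chromosome 6, 90645964 to 90648082 on genome build UMD v3.1) had 74.8, 192, 41.0 and 57.4 CPM at 2 h and 668, 1180, 250 and 530 CPM at 8 h. Its lowest 8 h library exceeded its highest 2 h library, and it rose by 2.9 ± 0.12 on the log2 scale (FDR = 5.78e-103). IL8 (chromosome 6, 90559882 to 90563647), the main neutrophil attractant in cattle, had 21.4, 81.4, 31.9 and 52.7 CPM at 2 h and 49.8, 125, 73.4 and 91.7 CPM at 8 h, from 0.0545 to 0.0898 CPM at 0 h. Every animal was higher at 8 h but the groups overlapped, and the log2 fold change of 0.95 ± 0.11 (FDR = 2.88e-15) was just under the limit of 1; it passed without animal 2 (1.07) or animal 4 (1.01). CXCL2 (chromosome 6, 90695494 to 90824841) went from 105, 194, 92.5 and 223 CPM to 86.3, 107, 69.9 and 105 CPM (-0.66 ± 0.14, FDR = 1.37e-05), which was not a called change, and 59.5% of its gain was left. CXCL2 overlaps LOC100847175, so some of its counts may belong there.

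Chemokines for mononuclear cells also went in several directions. Of 7 tested, CCL20 and CCL5 were higher (28.6%, against 1.87% of all rows), CX3CL1 was lower (14.3%, against 2.27%) and CCL2, CCL26, CXCL12 and CXCL16 were not called. CCL5, which attracts T cells and monocytes, went from 12.2, 44.3, 10.4 and 47.2 CPM to 71.6, 96.8, 46.9 and 126 CPM, higher in all 4 animals although 1 value at 8 h lay below 1 value at 2 h (1.81 ± 0.21, FDR = 1.35e-14). CCL20, the ligand of CCR6, had no counts in any animal at 0 h, which allows a level of up to 0.033 to 0.059 CPM, then 0.933, 4.15, 0.575 and 1.86 CPM at 2 h and 9.55, 16.8, 3.15 and 5.61 CPM at 8 h. It rose by 2.33 ± 0.26 on the log2 scale (FDR = 6.94e-16), and it counts as late because it was too low for the test of 2 h against 0 h. CX3CL1, a chemokine that is also an adhesion molecule of the cell surface, likewise had no counts at 0 h and went from 2.52, 14.6, 4.27 and 7.89 CPM to 1.01, 6.45, 1.81 and 3.17 CPM. Its fall within each animal (-1.26 ± 0.12, FDR = 5.37e-23) was smaller than the spread between animals, and it was not called when the animal was left out of the fit (-1.23). CCL2, the main monocyte attractant, persisted, with 134, 308, 124 and 144 CPM at 2 h and 193, 356, 171 and 187 CPM at 8 h (0.39 ± 0.08).

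Interferon-stimulated genes rose between 2 h and 8 h. Of 43 tested, 31 were higher at 8 h than at 2 h and none was lower (72.1% and 0.0%, against 1.87% and 2.27% of all rows), with a list median log2 fold change of 1.67. The quasi-likelihood test and DESeq2 gave 31 higher and 0 lower calls as well, and both with the FDR alone and at an unadjusted p under 0.05, 42 members were higher and 0 lower. Of the 43, 31 could be tested at 2 h against 0 h, and of these only CMPK2 was called higher, whereas 28 of the 43 were called higher at 8 h than at 0 h. The other 12, with ISG15, MX2, OAS1 and RSAD2 among them, were too low for the test at 2 h, and some were already above 0 h then. These 12 passed the filter only with their 8 h libraries, which favours a higher call, and all 12 are among the 31. The count of 31 of 43 and the list median are therefore partly set by the filter. RSAD2 had 0.015 to 0.11 CPM at 0 h and 0.348 to 0.49 CPM at 2 h, and ISG15 had 0.0327 to 0.0661 CPM and 0.153 to 0.284 CPM, without overlap. All 31 genes were higher at 8 h in all 4 animals, and for 30 of them the 2 h and 8 h libraries did not overlap, as for 27.6% of all rows tested. The calls came from these same libraries, so both counts describe the called genes and are no separate support. OAS1, which makes the second messenger that activates RNase L against viral RNA, had 0.348, 0.444, 0.104 and 0.17 CPM at 2 h and 52.5, 18.8, 52.8 and 53.6 CPM at 8 h (7.42 ± 0.45, FDR = 2.87e-35). Its range at 2 h was close to that at 0 h (0.105 to 0.439 CPM). OAS1 and OAS2 overlap on chromosome 17, so their counts are not fully independent.

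ISG15, a ubiquitin-like modifier, went from 0.195, 0.153, 0.222 and 0.284 CPM to 25.1, 3.48, 21.3 and 25.7 CPM (6.39 ± 0.23, FDR = 3.43e-215). MX2 and MX1 are dynamin-like antiviral GTPases that lie side by side on chromosome 1 (143119272 to 143155057 and 143172672 to 143204866). MX2 had 0.0306 to 0.071 CPM at 2 h and 6.04, 3.22, 5.13 and 7.24 CPM at 8 h (6.84 ± 0.43), and MX1 had 4.27, 1.3, 1.88 and 4.33 CPM at 2 h and 75.6, 12.7, 22.5 and 78.6 CPM at 8 h (3.83 ± 0.15). The sensors of foreign RNA and DNA in this list rose too, with log2 fold changes of 5.31 ± 0.45 for IFIH1, 6.23 ± 0.44 for ZBP1, 3.16 ± 0.25 for DHX58 and 1.8 ± 0.15 for DDX58. RSAD2, which encodes viperin, rose by 2.94 ± 0.32, and GBP5, a guanylate-binding protein, by 3.6 ± 0.2. Members called neither higher nor lower included IFITM3 (0.12), LGALS3BP (0.23) and ADAR (0.42).

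**Figure D3:**
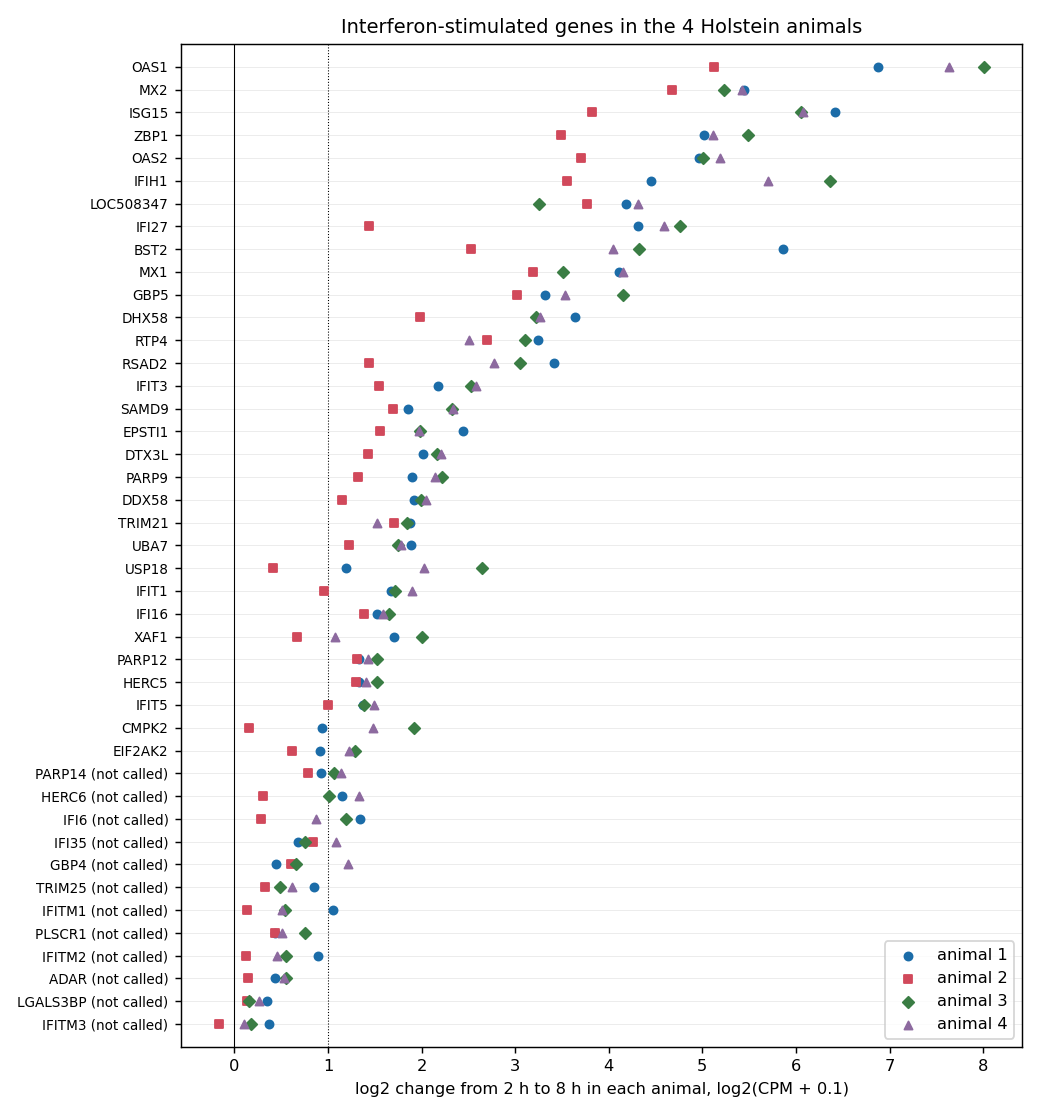
Change from 2 h to 8 h in each Holstein animal (horizontal axis, difference of log2(CPM + 0.1)) for the 43 interferon-stimulated genes tested, ordered by the fitted log2 fold change, with the dotted line at 1. The square of animal 2 is leftmost in 28 of the 31 called genes.

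Animals differed in the size of this rise. The median log2 change over the 31 called genes was 2.18, 1.55, 2.53 and 2.34 in animals 1 to 4, and animal 2 had the smallest rise in 28 of them. Summed over these genes, the level was 217.2, 216.1, 212.0 and 213.9 CPM at 0 h, 166.8, 165.4, 164.9 and 171.8 CPM at 2 h and 770.1, 431.1, 778.4 and 869.2 CPM at 8 h. In every animal the sum was lower at 2 h than at 0 h, so its rise from 2 h is larger than its rise from 0 h. The animals were thus alike in this sum at 2 h, and animal 2 was the lowest at 8 h. Without animal 2, 35 members of the list were called higher. Animal 2 had the highest 8 h levels of CXCL6, IL8, CCL2 and CCL20 of the 4 animals, but its log2 change was the smallest for IL8 (0.62), CCL2 (0.21), CCL5 (1.12) and IL6 (1.73). For CXCL6 (2.62, with 2.61 in animal 3) and CCL20 (1.99, with 1.54 in animal 4) it was not the smallest.

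Upstream components of the interferon pathway moved less. Among 25 tested interferon regulatory factors, STAT, SOCS and related genes, IRF9, SOCS2 and STAT4 were higher and CISH, IRF1 and IRF5 were lower. IRF9, the DNA-binding subunit of the complex that activates interferon-stimulated genes, went from 6.88, 7.52, 6.28 and 7.92 CPM to 25.8, 11, 23.5 and 24.0 CPM (1.5 ± 0.21, FDR = 1.78e-10), again with the lowest value in animal 2. Against 0 h, the log2 fold changes at 2 h and 8 h were -0.65 and 0.85 for IRF9 and -0.53 and 0.48 for STAT4. None of these was called. Of 18 genes of the immunoproteasome and of class I antigen processing, ERAP2, PSMB8, PSMB9 and TAP1 were higher and none was lower by edgeR's likelihood-ratio or quasi-likelihood test or DESeq2 (0 lower at an unadjusted p under 0.05), with a list median of 0.64. The shares were 22.2% higher and 0.0% lower, against 1.87% and 2.27% of all rows. A list of 18 genes is too small to show fewer lower calls than that. PSMB8, TAP1 and PSMB9, which trim and carry peptides for class I presentation, lie in a row on chromosome 23 between 7113298 and 7133609. PSMB9 rose from 0.444 to 0.506 CPM at 2 h to 2.59 to 3.36 CPM at 8 h (2.64 ± 0.19), PSMB8 by 2.02 ± 0.13 and TAP1 by 1.9 ± 0.16 on the log2 scale, and in each of the 3 genes the groups did not overlap. PSMB9 passed the filter only with its 8 h libraries, which favours a higher call.

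Some acute-phase and complement genes also rose between 2 h and 8 h, and CFB, PTX3 and SAA3 already lay above their 0 h range at 2 h. Of 14 tested, C1R, C2, CFB, PTX3 and SAA3 were higher and none was lower by edgeR's likelihood-ratio or quasi-likelihood test or DESeq2, with 2 lower at an unadjusted p under 0.05. C2 and SAA3 were under 1 CPM in every 2 h library. They passed the filter only with their 8 h libraries, which favours a higher call. The shares were 35.7% higher and 0.0% lower, against 1.87% and 2.27% of all rows. A list of 14 genes is too small to show fewer lower calls than that. CFB, complement factor B of the alternative pathway, had 5.57, 8.57, 2.74 and 11 CPM at 2 h and 109, 138, 76.8 and 184 CPM at 8 h (4.28 ± 0.13, FDR = 5.07e-189). It had already been called higher at 2 h than at 0 h (3.41), and none of the groups overlapped. C2, the neighbouring gene with the same role in the classical pathway, had 0.337 to 1.06 CPM at 0 h and rose from 0.562 to 0.705 CPM at 2 h to 2.22 to 3.17 CPM at 8 h (2.11 ± 0.17). SAA3, a serum amyloid A protein made outside the liver, had at most 0.0299 CPM at 0 h and went from 0.362, 0.368, 0.131 and 0.0994 CPM to 13.5, 14.2, 6.03 and 11.9 CPM (5.6 ± 0.24, FDR = 2.98e-129). PTX3, a soluble pattern recognition molecule that was also called higher at 2 h than at 0 h (5.03), rose less within each animal (1.07 ± 0.21, FDR = 7.45e-06) than the animals differed (1.58 to 16.4 CPM at 2 h), and it was not called without the animal in the fit (0.82) or without animal 3 (0.79). VCAM1, an adhesion molecule for leukocytes, was the 1 of 7 adhesion genes called (14.3% higher, against 1.87% of all rows), from 3.47, 8.49, 1.21 and 3.11 CPM to 19.4, 48.9, 11.3 and 17.3 CPM (2.65 ± 0.13). For ICAM1 the longer of 2 rows with that symbol was higher than at 0 h at both LPS times and was maintained from 2 h to 8 h (mean of 10.6 and 12.1 CPM, 0.25 ± 0.14, FDR = 0.139).

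In the prostaglandin pathway, the inducible and the constitutive cyclooxygenase moved in opposite directions. PTGS2, the inducible enzyme, fell from 167, 204, 133 and 304 CPM to 64.4, 70.5, 51.7 and 115 CPM (-1.42 ± 0.07, FDR = 1.01e-83), with 34.7% of its gain left. PTGS1, the form usually regarded as constitutive, rose from 3.47, 2.05, 5.0 and 3.58 CPM to 19.8, 12, 19.9 and 25.4 CPM (2.46 ± 0.14, FDR = 1.73e-62). Neither gene showed any overlap between the times, and PTGS1 at 2 h was within its range at 0 h (2.62 to 5.51 CPM) except for animal 2. PLA2G4A, the phospholipase that releases arachidonic acid for both enzymes, lies on chromosome 16 near PTGS2 and rose from 14.7 to 24.8 CPM to 51.7 to 101 CPM (2.0 ± 0.08). HPGD, which degrades prostaglandins, rose by 1.15 ± 0.1. The other 7 of the 11 tested genes of this list were not called (27.3% were higher and 9.1% lower, against 1.87% and 2.27% of all rows). PTGS2 overlaps LOC100138376, which had nearly the same fold change (-1.41).

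Antioxidant and detoxifying genes were divided in the same manner. SOD2, the mitochondrial superoxide dismutase that NF-kB induces, had 4.59, 4.63, 3.23 and 4.27 CPM at 2 h and 25.3, 30.9, 14.9 and 31.0 CPM at 8 h (2.57 ± 0.12, FDR = 4.08e-94). MT2A, a metallothionein, rose by 2.03 ± 0.18. HMOX1 (heme oxygenase) and TXNRD1 (thioredoxin reductase), both targets of the oxidant sensor NRF2, fell by 1.61 ± 0.1 and 1.07 ± 0.08 and were back at their 0 h levels or below (10.9 to 17.9 CPM at 0 h and 8.61 to 13.7 CPM at 8 h for HMOX1, and 69.4 to 85.5 CPM and 63.3 to 85.3 CPM for TXNRD1). The other 12 of 16 tested members were not called (12.5% were higher and 12.5% lower, against 1.87% and 2.27% of all rows). Of the 20 TNF receptor and cell-death genes, 4 were higher, CASP4, CASP8 and PMAIP1 among them, and GADD45B and TNFRSF1B were lower. CASP4, the caspase that senses LPS inside cells, went from 26.1, 27.3, 27.9 and 26.3 CPM to 56.9, 72.9, 63.0 and 62.1 CPM (1.24 ± 0.07, FDR = 3.06e-61), with little spread between animals at 2 h.

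A set of transcripts that had fallen at 2 h was back near its 0 h level by 8 h. In the 77 recovering rows the median level at 8 h was 99.2% of that at 0 h, and 67 of them were within 25% of it. Membership needed a called fall and then a called rise, so a return towards 0 h is partly built in. A separate 15 rows were lower than 0 h at both times with no call between them. TXNIP, an inhibitor of thioredoxin and of glucose uptake, had 88.7, 115, 118 and 126 CPM at 0 h, 12.7, 15.2, 26.5 and 21.9 CPM at 2 h and 71.9, 89.9, 110 and 108 CPM at 8 h. The groups did not overlap between 2 h and 8 h, and TXNIP rose by 2.36 ± 0.09 on the log2 scale (FDR = 8.51e-123). It overlaps LOC100848155 on the other strand, which had the same course (2.4 ± 0.12). Of the 5 tested members of its alpha-arrestin family, ARRDC3 (1.91 ± 0.09) and ARRDC4 (2.01 ± 0.12) rose likewise, ARRDC2 fell (-1.2 ± 0.11) and ARRDC1 was not called. KCNE4, a subunit of potassium channels, showed the largest recovery, from 0.362, 0.766, 0.34 and 0.483 CPM to 6.93, 11, 4.26 and 8.32 CPM (3.96 ± 0.18, FDR = 4.07e-111). LRIG3, a membrane protein with leucine-rich repeats (2.39 ± 0.1), and CHAC1, which degrades glutathione and is a target of the ATF4 stress pathway (2.15 ± 0.17), were alike. CHAC1 was the only 1 of 19 tested amino-acid and ER stress genes called in this comparison (5.3% called higher, against 1.87% of all rows).

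Fewer genes fell only after 2 h. HDAC9, a class IIa histone deacetylase, had 15.3, 19.6, 12.7 and 21.0 CPM at 0 h, 14.7, 18.3, 11.4 and 19.2 CPM at 2 h and 2.25, 2.67, 2.19 and 1.47 CPM at 8 h. It was level for the first 2 h in every animal and then fell by 2.89 ± 0.2 on the log2 scale (FDR = 1.11e-39). SP7, a transcription factor of bone formation (-1.26 ± 0.16), and MMP11, a matrix metalloproteinase of stromal cells (-1.17 ± 0.14), were in this class. GREM1, a secreted antagonist of bone morphogenetic proteins, fell from 79.4 to 137 CPM to 33.0 to 61.6 CPM (-1.09 ± 0.09) without a call against 0 h at either time. With ID1 (-1.16 ± 0.11) and SMAD7 (-1.71 ± 0.07), both direct targets of this signalling and both of the decaying class, 3 of 26 TGF-beta and BMP genes were lower and none was higher by the likelihood-ratio test, the quasi-likelihood test or DESeq2, with 8 higher at an unadjusted p under 0.05. The shares were 11.5% lower and 0.0% higher, against 2.27% and 1.87% of all rows. A list of 26 genes is too small to show fewer higher calls than that.

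Circadian clock genes moved in both directions. Of 16 tested, ARNTL, ARNTL2, NPAS2 and NFIL3 were higher and BHLHE40, DBP and PER2 were lower. ARNTL (BMAL1), the core activator, had 14.5 to 17.2 CPM at 2 h and 28.9 to 39.0 CPM at 8 h (1.03 ± 0.08), and its paralog ARNTL2 went from 0.241 to 0.49 CPM to 2.94 to 6.95 CPM (3.67 ± 0.2). ARNTL2 passed the filter only with its 8 h libraries, which favours a higher call. DBP, a classical clock output gene, had been 5.03 to 8.14 CPM at 0 h and fell from 3.01 to 5.03 CPM to 1.19 to 2.14 CPM (-1.12 ± 0.16). NR1D1, the repressor of ARNTL, was called lower at 2 h than at 0 h and then gained from 4.01 to 5.5 CPM to 7.17 to 9.22 CPM, which stayed under the fold limit (0.73 ± 0.11). PER1 was not called (-0.42).

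Collagen and hyaluronan synthase genes (0.0% higher, 4.5% lower) and cholesterol genes (0.0% in each direction) were called about as rarely as all rows (1.87% and 2.27%). Lists of 22 genes are too small to show fewer calls than that. Of 22 tested collagens and hyaluronan synthases only HAS1 was lower (-3.41 ± 0.22), while HAS2, which had risen from 0.218 to 0.973 CPM at 0 h, persisted at 5.02 to 17.7 CPM at 2 h and 4.93 to 12.3 CPM at 8 h (-0.12 ± 0.13). COL1A1 was level from 2 h to 8 h (-0.26) but was called lower than at 0 h at both times (-1.02 and -1.27). The 0 h libraries of animals 2 and 4 differed in the bases covered per count at this gene, which limits that comparison. None of the 22 tested cholesterol genes was called by edgeR's likelihood-ratio or quasi-likelihood test or by DESeq2, although 8 were higher and 7 lower at an unadjusted p under 0.05. TLR4 itself was not called (2.59 to 4.44 CPM and 1.93 to 4.8 CPM, -0.36 ± 0.18, FDR = 0.113), whereas TLR2, the receptor for bacterial lipoproteins, rose from 0.557 to 1.35 CPM to 1.99 to 4.61 CPM (1.72 ± 0.22). Beside TLR2, NOD2 was higher and MAP3K8 was lower among 22 LPS receptor and signalling genes (9.1% higher and 4.5% lower, against 1.87% and 2.27% of all rows), and NOD2 was not called without animal 2 (0.92). Against 0 h, NOD2 had log2 fold changes of -0.39 at 2 h and 0.64 at 8 h, neither of them called. Of 30 cell cycle genes, CCNB1, CDC20 and PLK1, which act in mitosis, were higher (1.2, 1.14 and 1.08), which is 10.0% of the list against 1.87% of all rows, and 27 were not called. At an unadjusted p under 0.05, 16 of the 30 were higher and 6 were lower. FGF7, the growth factor of fibroblasts for keratinocytes, rose by 1.33 ± 0.1, ADM, the vasodilator adrenomedullin, by 1.02 ± 0.12, and the protease ADAMTS6 by 1.37 ± 0.11. ADM lies close to the limit and was not called without the animal in the fit (0.98).

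**Figure D4:**
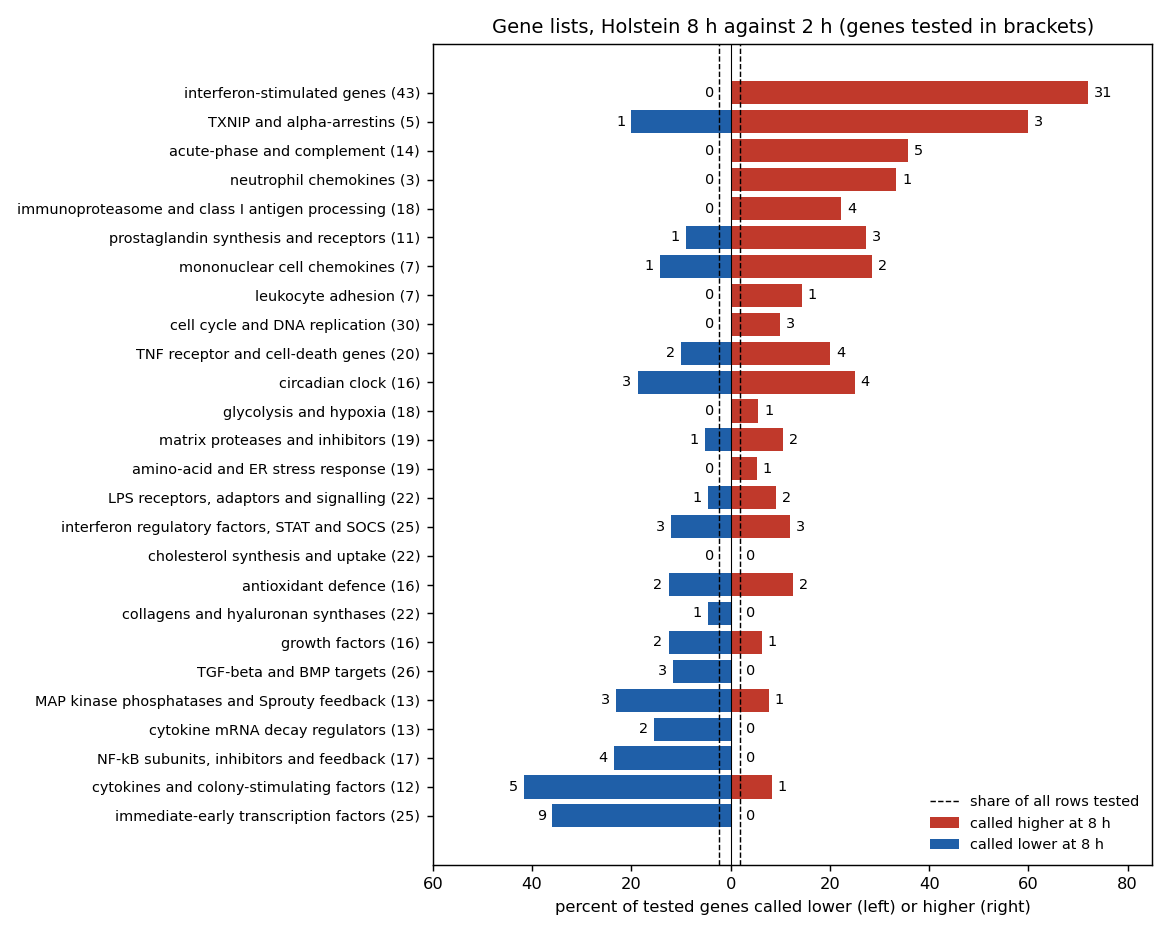
Share of the tested genes of each list called higher (red, to the right) or lower (blue, to the left) at 8 h than at 2 h in percent, with the number called at the end of each bar, the number tested in brackets and dashed lines at the shares of all rows tested (1.87% higher, 2.27% lower). Interferon-stimulated genes (31 of 43) had the largest share called higher and cytokines (5 of 12) and immediate-early factors (9 of 25) the largest shares called lower. Of the 43 interferon-stimulated genes, 12 passed the filter only with their 8 h libraries. C2, SAA3, PSMB9 and ARNTL2 of other lists did so too, while EGR3, FOSB and TNF passed it only with their 2 h libraries.

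Nearly as many called intervals without a gene symbol adjoined a gene called in the same direction as did not. Of the 118 such intervals called higher, 57 (48.3%) adjoined a gene called higher, and of the 200 called lower, 93 (46.5%) adjoined a gene called lower. Among all 7427 intervals tested, 407 (5.5%) adjoined a gene called in either direction. Past the 3′ end of such a gene lay 46 of the higher (39.0%) and 72 of the lower intervals (36.0%), against 3.4% of all intervals tested. The largest fall was that of the interval on chromosome 8 from 70480014 to 70502498, which ends where the row of EGR3 begins and fell from 14.9, 15.6, 8.86 and 14.4 CPM to 0.11, 0.162, 0.18 and 0.25 CPM (-6.27 ± 0.24), close to the change of EGR3 itself. The largest rise shared by all 4 animals was that of an interval on chromosome 21 from 34834893 to 34878676, from 0.0914 to 0.95 CPM to 1.4 to 3.97 CPM (2.72 ± 0.28).

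Finally, the change from 2 h to 8 h was compared with that in Angus fibroblasts, which were cultured and treated alike. In Angus, 230 rows (1.13%) were called higher and 328 (1.61%) lower at 8 h. Of 33 tested interferon-stimulated genes 10 were called higher, and of 24 tested immediate-early genes 4 were called lower in that breed. The interaction of breed and hour, which tests the difference of the changes itself, gave 112 rows (0.552%) with a larger and 82 rows (0.404%) with a smaller log2 change in Holstein, out of 20291 tested. The change is taken with its sign, so a row that fell further in Holstein counts as smaller. Of the 112, 57 were called higher in Holstein from 2 h to 8 h, and of the 82, 43 were called lower. The interaction counts rest on the animal as a block, since without it 25 and 33 rows were called, and 57 of the 194 calls were kept. Without Angus animal 3, whose 2 h library differed in the bases covered per count at COL1A1, the counts were 128 and 116.

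IL6 showed a called difference of 2.5 ± 0.27 on the log2 scale (FDR = 2.34e-16). It rose in all 4 Holstein animals as given above, while in Angus it went from 42.9, 19.2, 204 and 7.44 CPM to 36.0, 25.7, 128 and 3.83 CPM (-0.36 ± 0.2, FDR = 0.172). At 2 h, therefore, IL6 in Angus spanned a wider range than in Holstein, and Angus animal 3 was the highest. IL8 was also called (1.9 ± 0.19, FDR = 5.84e-19), because it was lower at 8 h in every Angus animal (35.7, 13.8, 96.3 and 13.6 CPM at 2 h and 19.8, 9.89, 38.1 and 6.57 CPM at 8 h) and higher in every Holstein animal. CXCL6 rose by 0.97 ± 0.09 in Angus, just under the fold limit, and its interaction was 1.94 ± 0.16.

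Of 35 interferon-stimulated genes tested for the interaction, 7 had a called larger rise in Holstein (0.552% of all rows had one) and 28 were not called. The 7 included ISG15 (3.14 ± 0.47), BST2 (2.52 ± 0.5), IFIH1 (2.33 ± 0.63) and MX1 (2.25 ± 0.43). BST2, also called tetherin, went from 1.0, 1.49, 4.22 and 5.25 CPM to 64.0, 9.08, 86.0 and 88.0 CPM in Holstein and from 5.44, 3.37, 9.28 and 2.28 CPM to 15.6, 13.1, 31.5 and 7.39 CPM in Angus. Holstein animal 2 was thus within the Angus range at 8 h. LOC511531 differed by 2.51 ± 0.24, and MMP3, a matrix metalloproteinase too low for the test within Holstein, by 2.67 ± 0.61, with Holstein animal 3 unchanged (0.144 and 0.163 CPM). In the other direction, IER2 fell in Holstein and was level in Angus (17.7, 14.2, 17.5 and 14.1 CPM at 2 h and 18.1, 13.7, 16.5 and 15.2 CPM at 8 h), with an interaction of -1.7 ± 0.17. DUSP5 (-1.94 ± 0.31) and CTSW (-2.24 ± 0.37) fell in both breeds and further in Holstein. NR1D1 gained more in Angus (2.2 ± 0.21) than in Holstein (interaction of -1.46 ± 0.26).

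**Figure D5:**
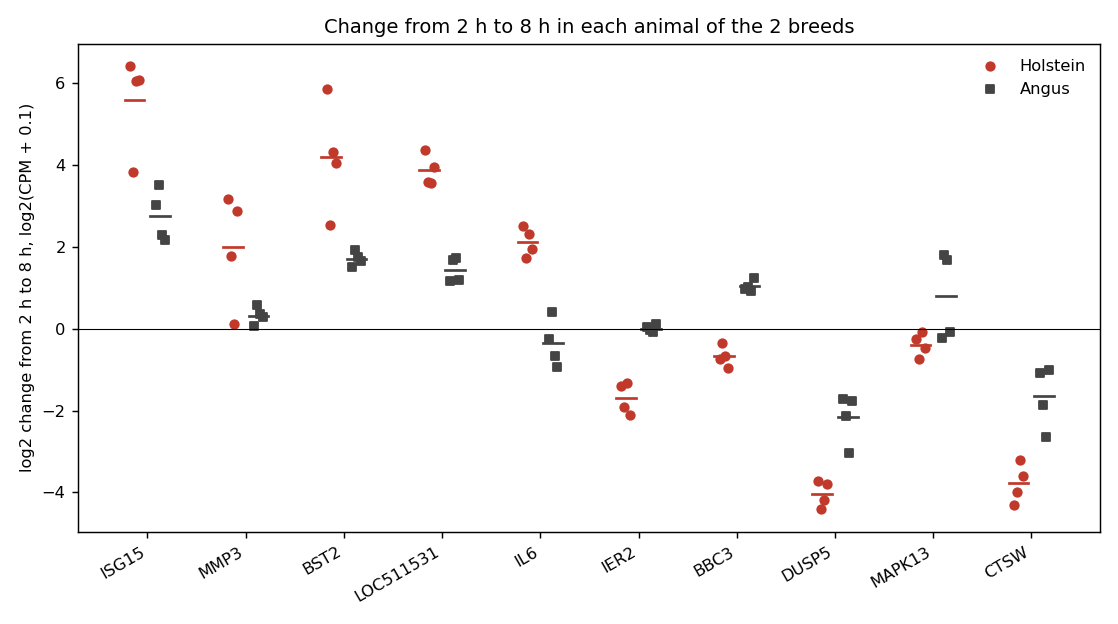
Change from 2 h to 8 h in each animal (vertical axis, difference of log2(CPM + 0.1)) for the 5 genes with the largest positive and the 5 with the largest negative interaction, with Holstein as red circles, Angus as grey squares and bars at the means of 4 animals. The breeds do not overlap for ISG15, BST2, LOC511531, IL6, IER2, BBC3, DUSP5 and CTSW, and they do for MMP3 and MAPK13.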

How the data were processed

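Messenger RNA was sequenced from dermal fibroblast cultures of 4 Holstein and 4 Angus heifers at 0, 2 and 8 h of LPS. With NextGENe, the authors aligned the filtered reads to build UMD v3.1 and deposited, for each sample, raw read counts without normalization over 59846 rows, of which 27550 carried a gene symbol. The mean coverage signal that the authors deposited beside the counts was used for checking the counting and for nothing else. Rows without a symbol are located intervals, took 12.28% to 15.45% of the counts in the 8 libraries compared, and were kept in the tests. A row covers a whole gene span and strand was not used, so exons and introns cannot be separated and 3905 overlapping gene rows can share counts. A total of 169 symbols stood on several rows. For lists, 1 row was used for each symbol. Positions are those of the tables. The reference table at hand, on another build, was used for current symbols only.

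Groups and animal numbers came from the sample labels. Counts were tested with edgeR 4.0.16 in R 4.3.3 (TMM scaling, likelihood-ratio test, Benjamini-Hochberg adjustment) on rows with at least 1 CPM in at least 50% of the samples compared. The test, filter and thresholds follow the methods of the study. The animal was a block in the model, because the number in the title names the animal. Deviations from the group means correlated at 0.438 to 0.636 between the 2 samples of an animal and at -0.273 to -0.036 between different animals. Such deviations sum to 0 in each group, so values above 0 within animals draw those between animals below 0. Standard errors came from the fitted model. The interaction used 16 samples with 8 animals as blocks. The changes in single animals used log2(CPM + 0.1). The share of the 2 h gain left at 8 h was the mean at 8 h less that at 0 h, divided by the mean at 2 h less that at 0 h. No 2 libraries within a group agreed within sampling noise. The fits were tested on simulated data. Alternatives were the fit without the block, the quasi-likelihood test, DESeq2 1.42.0 (with its size factors), RLE scaling, no filter, the FDR alone, each animal left out, all 12 Holstein samples together, rows with a symbol only, and leaving out Holstein animals 2 and 4. The quasi-likelihood test without the block was chosen after seeing the data.

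Genes were named by rule, namely the 12 largest rises and falls that were called and alike in all 4 animals, up to 4 called members of each list, a panel, the 3 largest rises and falls of intervals, the 5 largest interactions in each direction and up to 5 genes of each time class. A few list members outside this rule were named after their values were seen. The comparison, the lists and the panel were chosen with earlier results of these data known. Methylation data and promoter or protein sequences were not analysed here. A few list members are not reported here.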

Additional observations from a re-analysis of the deposited data

Results flagged for a closer look

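In 8 of the 125 named rows with a value in all 4 animals, the change from 2 h to 8 h (difference of log2(CPM + 0.1)) of 1 Holstein animal stood apart from the other 3 by Dixon's criterion, which flags about 1 in 20 groups by chance. For 3 interferon-stimulated genes it was animal 2 that rose least: ISG15 rose by 3.82 in animal 2 and by 6.05 to 6.42 in the others, OAS2 by 3.7 against 4.96 to 5.19, and IFI27 by 1.44 against 4.31 to 4.76. Animal 2 also had the largest fall of FAM150A, at -2.35 against -1.25 to -1.13. VCAM1 rose most in animal 3 (3.12 against 2.44 to 2.51), and ARRDC3 least in animal 1 (1.62 against 1.99 to 2.0). For the intervals, the row on chromosome 13 from 54499224 to 54502119, which adjoins ZBTB46, changed by -3.24 in animal 3 against -4.1 to -4.02, and the row on chromosome 14 from 30968780 to 30983212 by 2.9 in animal 4 against 2.43 to 2.5.

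The change from 2 h to 8 h differed between the breeds in the interaction test for 10 named genes. The log2 change was larger in Holstein for ISG15 (by 3.14), MMP3 (by 2.67), BST2 (by 2.52), LOC511531 (by 2.51) and IL6 (by 2.5). With its sign, it was lower in Holstein for CTSW (-2.24), MAPK13 (-2.21), DUSP5 (-1.94), BBC3 (-1.77) and IER2 (-1.7). Of these, CTSW, DUSP5 and IER2 fell further in Holstein than in Angus. BBC3, which encodes the cell-death protein PUMA, was lower at 8 h in every Holstein animal (-0.96 to -0.34) and higher in every Angus animal (0.92 to 1.24). MAPK13 was near 0 CPM in Angus (0.0 to 0.657 CPM), and its value rests on few counts there.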

How the results depend on the processing

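Between 2 h and 8 h none of the 850 calls in Holstein changed sign under the alternatives. LOC100848478, which was not called (2.53), turned to -0.26 without animal 3 and -0.25 without animal 4, and was called without animal 1 (4.92). FOS, IL1A and HAS2, which were near 0 and not called, also changed sign when 1 animal was left out. The fit without the replicate block gave 356 rows higher and 447 lower and kept 788 of the 850 calls. It changed the call of PTX3, CNGA3 (-1.39), ADM and CX3CL1 among 129 named rows, whereas the quasi-likelihood test, DESeq2, RLE scaling and no filter changed none. Leaving out each animal in turn gave 368 to 458 rows higher and 466 to 515 lower. For the interaction, the fit without the replicate block gave 25 and 33 rows.

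Without the fold change and CPM limits, counts grew to 4054 higher and 4049 lower for 8 h against 2 h, 3498 and 3770 for 2 h against 0 h, 3662 and 3548 for 8 h against 0 h, 3389 and 3288 in Angus, and 721 and 559 for the interaction. The time classes then held 1955 decaying, 792 maintained, 272 building, 1561 late, 2017 recovering and 1776 late falling rows, so these counts depend on the limits. With rows that carry a symbol only, 278 rows were lower, 148 decaying, 59 maintained and 48 late falling, since fewer rows were tested. Without Holstein animals 2 and 4, whose 0 h libraries differed in the bases covered per count at COL1A1, 267 rows were decaying, 78 maintained, 11 building and 159 late. Depth limits statements on rows under about 0.05 CPM, and with 4 animals a group small changes can be missed.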

Other observations

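Gene spans and family names differed between the classes. The median span of a called gene was 16.1 kb among the 266 higher and 12.89 kb among the 266 lower genes, against 20.86 kb for the 13106 genes tested, and 37.2%, 40.6% and 32.0% of them were shorter than 10 kb. Genes with a ZNF symbol, which encode zinc finger proteins, made up 8 of the 59 recovering genes (13.6%), 2 of the 147 decaying genes and none of the 122 late genes, against 251 (1.92%) of all genes tested. This family was looked at after the members of the class had been seen, and no test was run.

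The decaying transcripts that were still called higher at 8 h than at 0 h included F3, the tissue factor that starts coagulation (-2.0 ± 0.12 from 2 h to 8 h, 21.7% of its gain left), RND1, a small GTPase that loosens the actin cytoskeleton (-1.33 ± 0.15, 35.7% left), RGS16, a regulator of G protein signalling (-2.45 ± 0.09, 10.9% left), and TNFAIP2 (-1.85 ± 0.18, 15.9% left).

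LOC100848478, which lies within SRPK2 on chromosome 4, met the definition of a maintained row but had 170, 166, 1.76 and 1.76 CPM at 2 h and 1.64, 138, 168 and 136 CPM at 8 h. It was either near 1 CPM or above 100 CPM in these libraries, without regard to animal, and its class should not be read as a time course.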
